A study of Mus musculus with 6 samples.

Results

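The apolipoprotein genes of sorted mouse hepatocytes were followed through all of their probe sets, short groups of array probes that each measure a transcript. Members were every probe set whose platform annotation named exactly 1 gene symbol, equal to Apoa1, Apoa2, Apoa4, Apoa5, Apob, Apoc1, Apoc2, Apoc3, Apoe or Apoh. The rule found 14 probe sets for these 10 genes, of 12393 genes with a probe set of their own and 22626 probe sets without controls. Apoa1 had 4 probe sets, Apoa4 had 2, and the other 8 genes had 1 each. Hepatocytes came from wild type C57BL/6 mice aged 3 weeks, were stained with the DNA dye Hoechst 33342 and were sorted by flow cytometry. The diploid and the tetraploid fraction shared strain, age and treatment and were each measured on 3 arrays. The labels call the samples biological replicates without saying whether each came from an animal of its own, and a p-value here therefore covers only the scatter among these arrays, part of which may be technical. The sort was by DNA content, and the labels name no further gate.

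Apolipoproteins are the protein part of lipoprotein particles, which carry cholesterol and triglycerides in blood, and the liver secretes most of them. APOB holds together the particles that deliver triglycerides, APOA1 and APOA2 are the main proteins of high-density lipoprotein (HDL), and APOE is a ligand through which cells take up lipoproteins. APOC2 and APOA5 favour the breakdown of triglycerides by lipoprotein lipase, whereas APOC3 and APOC1 slow the clearance of particles. APOA4 is made in the intestine and, in mice, also in the liver. APOH, a phospholipid-binding plasma protein, carries the name of the family without being a typical member. Apoa1, Apoc3, Apoa4 and Apoa5 lie next to each other on chromosome 9, and Apoc2, Apoc4, Apoc1 and Apoe are neighbours on chromosome 7 in the RefSeq annotation.

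Apoa4 and Apoc2 had lower levels in the tetraploid fraction on all 3 arrays, by 1.23-fold and 1.15-fold, while 6 of the other 8 genes were read from probe sets near the top of the measured range. No member passed a Benjamini-Hochberg adjusted p of 0.05 in limma, with adjusted p-values between 0.501 and 0.983. Of all 22626 probe sets, 0 passed (percent called 0), 1561 had an unadjusted limma p under 0.05, and 1 passed without tetraploid replicate 1. At an unadjusted p under 0.05, 3 of the 14 member probe sets were lower and 0 higher, against 6.9% of all probe sets in either direction, 3.55% lower and 3.35% higher. These 3 belonged to 2 genes, because Apoa4 accounts for 2 of them. Values of the fractions did not overlap for 7 member probe sets, 6 lower and 1 higher in tetraploid cells, against 12.7% of all probe sets, 6.77% lower and 5.95% higher. Probe sets of 1 gene read the same RNA, and counted by the brightest probe set of each gene, 4 of 10 genes had fractions that did not overlap. The mean was lower in the tetraploid fraction for 12 of 14 member probe sets, against 51.9% of all probe sets. Apoa1 gave 4 of these 12 and Apoa4 gave 2, and by the brightest probe set 8 of 10 genes were lower. The median log2 difference over member probe sets was -0.030, against -0.0063 over all probe sets. In bulk RNA of a fraction, fewer cells of a kind and less RNA per cell cannot be told apart.

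**Figure D1:**
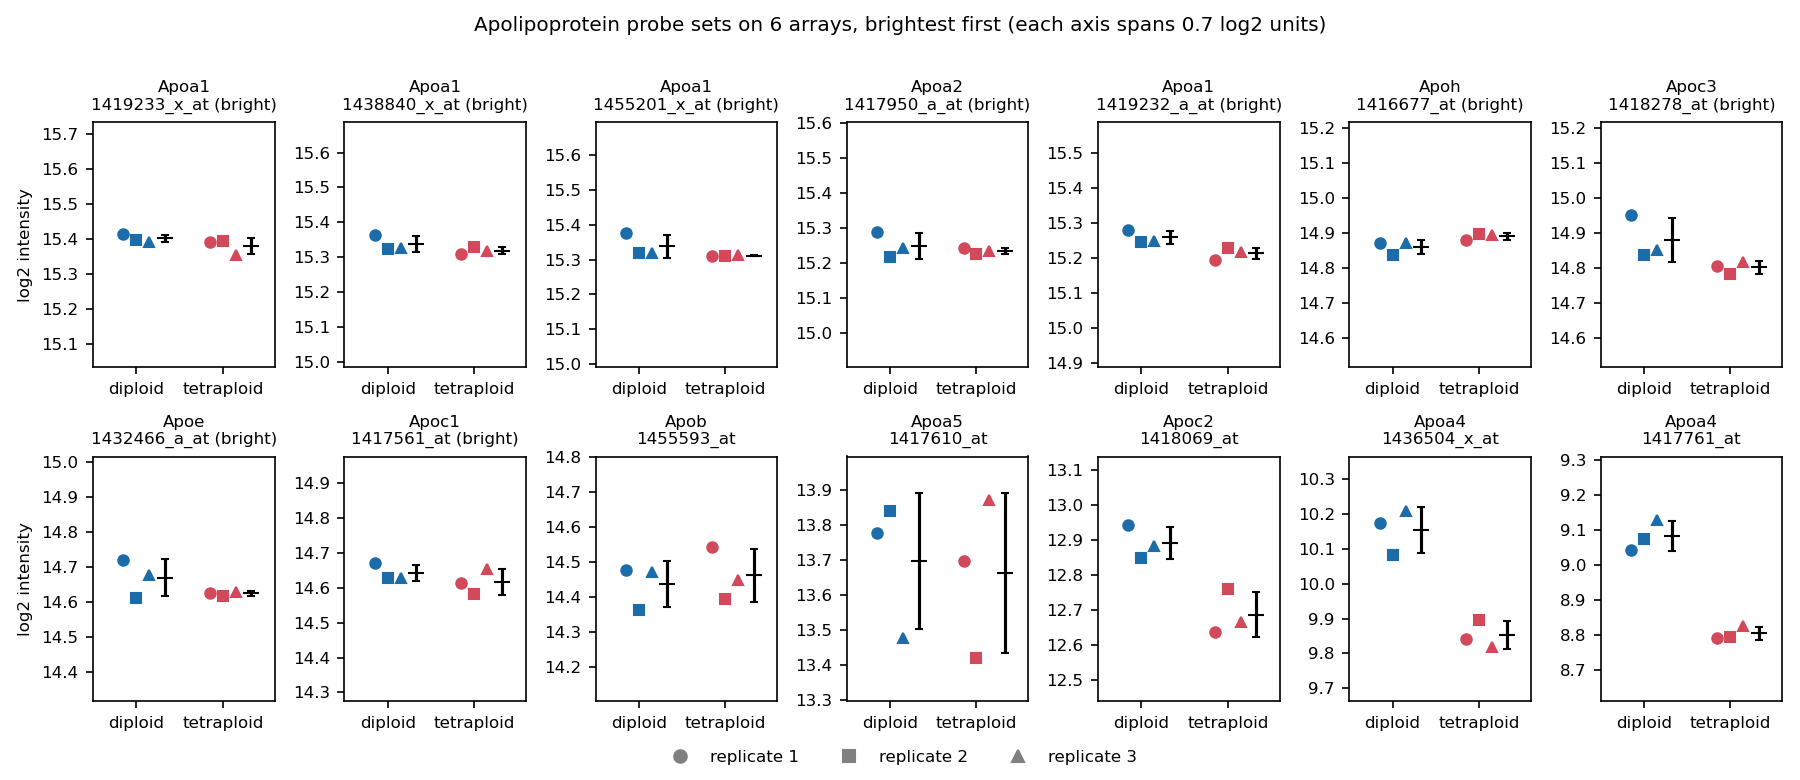
Log2 intensity of each apolipoprotein probe set on the 6 arrays, in panels ordered by brightness that all span 0.7 log2 units; blue points are diploid and red points tetraploid arrays, the marker shape gives the replicate number, and the black bar is the mean with the SD of 3 arrays. The fractions are clearly apart for Apoc2 and for both Apoa4 probe sets, while the points of the bright panels lie almost on a line and those of Apoa5 are scattered.

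The sequences just upstream of Apoa4 and Apoc2, the genes with lower values in tetraploid cells, are shown beside that of Apoa5, a neighbour of Apoa4 whose fractions overlapped. Each is the 250 bases before the annotated start in RefSeq (GRCm38.p6), 5′ to 3′ on the strand of the gene, with searched motifs in capitals. Apoa4 is at chr9:46240594-46240843 (plus strand), Apoa5 at chr9:46268358-46268607 (plus strand) and Apoc2 at chr7:19677942-19678191 (minus strand).
Apoa4: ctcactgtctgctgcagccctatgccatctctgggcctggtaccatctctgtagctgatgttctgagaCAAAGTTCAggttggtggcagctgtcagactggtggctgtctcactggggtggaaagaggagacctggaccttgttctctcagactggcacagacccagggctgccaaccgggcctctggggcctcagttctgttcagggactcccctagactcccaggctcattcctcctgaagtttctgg
Apoa5: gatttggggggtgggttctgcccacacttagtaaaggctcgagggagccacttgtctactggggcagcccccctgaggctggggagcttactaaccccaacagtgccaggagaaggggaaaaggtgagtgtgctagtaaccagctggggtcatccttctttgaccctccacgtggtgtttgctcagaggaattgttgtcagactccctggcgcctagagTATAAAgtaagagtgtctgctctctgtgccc
Apoc2: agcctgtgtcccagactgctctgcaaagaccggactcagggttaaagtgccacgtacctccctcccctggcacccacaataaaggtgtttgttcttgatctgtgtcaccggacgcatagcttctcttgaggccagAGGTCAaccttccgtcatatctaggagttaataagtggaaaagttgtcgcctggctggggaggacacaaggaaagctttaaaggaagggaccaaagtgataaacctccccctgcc

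Capitals mark AGGTCA, a core element bound by nuclear receptors, CAAAGTCCA and CAAAGTTCA, forms of the site of the hepatocyte factor HNF4, and TATAAA, the TATA box, each searched on both strands. The Apoa4 window held CAAAGTTCA, which begins 182 bases before the start and is found in 0.335% of the 32851 upstream windows of the RefSeq table. The Apoc2 window held AGGTCA, 115 bases before the start, a motif of 14% of windows. The Apoa5 window, that of the more upstream of its annotated starts, held TATAAA, 31 bases before the start, a motif of 12.4% of windows. CAAAGTCCA occurs in 0.384% of windows and in none of these 3. The motifs do not overlap each other, they were chosen with the values of the genes known, and a match is a description of letters only. The table held upstream windows for 8 of the 10 genes. AGGTCA was also found, on the opposite strand, in windows of Apoa2 and Apoh. Their log2 differences were -0.015 and 0.031, so this motif was not particular to genes with lower values. TATAAA was also found in windows of Apoa2, Apob and Apoe.

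Apoa4 had the largest difference of the 10 genes, and its probe sets gave nearly the same value. On the brighter probe set, log2 intensities were 10.17, 10.08 and 10.21 on diploid replicates 1 to 3 and 9.84, 9.90 and 9.82 on tetraploid replicates 1 to 3. Every tetraploid array was below every diploid array, and the gap between the fractions was wider than the range within either. Group means were 10.15 ± 0.06 and 9.85 ± 0.04 (SD, n = 3), a log2 difference (tetraploid minus diploid) of -0.30 ± 0.08 (SE), with a 95% interval from -0.48 to -0.12. This is a 1.23-fold lower level, and the interval covers 1.09-fold to 1.39-fold. The limma p was 0.00416 unadjusted and 0.501 adjusted. The brighter probe set is of the _x_at kind, whose probes can match further transcripts.

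The other Apoa4 probe set, of the gene-specific _at kind, read 9.04, 9.07 and 9.13 in diploid and 8.79, 8.80 and 8.83 in tetraploid cells. It separated the fractions too, with even less scatter within each. The difference was -0.28 ± 0.07 (SE), with a 95% interval from -0.44 to -0.11 and an adjusted limma p of 0.516. An exact two-sided permutation test of either probe set gave p = 0.1, which is as low as a comparison of 3 with 3 arrays can go. Over the leave-one-out fits and other settings, 27 fits in all, the unadjusted p stayed under 0.05 in 27.

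Apoc2, which encodes the cofactor that lipoprotein lipase needs, had log2 intensities of 12.94, 12.85 and 12.88 on the diploid arrays and 12.64, 12.76 and 12.67 on the tetraploid arrays. The fractions did not overlap, and tetraploid replicate 2 came closest to the diploid values. The difference was -0.21 ± 0.08 (SE, n = 3 per fraction), a 1.15-fold lower level with a 95% interval from 1.02-fold to 1.30-fold. The limma p was 0.0285 unadjusted and 0.697 adjusted. The unadjusted p passed 0.05 in 2 of 6 leave-one-out fits, and rose to 0.0715 without diploid replicate 1, 0.0632 without diploid replicate 3, 0.0841 without tetraploid replicate 1 and 0.0703 without tetraploid replicate 3. Apoc4, which lies between Apoc2 and Apoc1, differed by -0.014 ± 0.081 (SE, n = 3 per fraction).

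Apob, the structural protein of very-low-density lipoprotein, read 14.48, 14.36 and 14.47 in diploid and 14.54, 14.40 and 14.45 in tetraploid cells. The ranges overlapped, and the difference was 0.025 ± 0.081 (SE). Its 95% interval ran from -0.16 to 0.21 on the log2 scale. At -0.013 without diploid replicate 2 and -0.016 without tetraploid replicate 1, its sign rested on single arrays. Apob lay just outside the mark for bright probe sets, with a mean of 14.45.

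Apoa5, whose product activates lipoprotein lipase on the vessel wall, was the most variable member. Its values were 13.78, 13.84 and 13.48 on the diploid arrays and 13.70, 13.42 and 13.87 on the tetraploid arrays. Each fraction held a low array, diploid replicate 3 and tetraploid replicate 2, and the others of both fractions lay together. The pooled SD within fractions was 0.212, against at most 0.0705 for any other member probe set. The difference of -0.035 ± 0.14 (SE) had a 95% interval from -0.35 to 0.29, which reaches from a 1.28-fold lower to a 1.22-fold higher level. Without tetraploid replicate 2 the difference was 0.087, and without diploid replicate 3 it was -0.15.

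**Figure D2:**
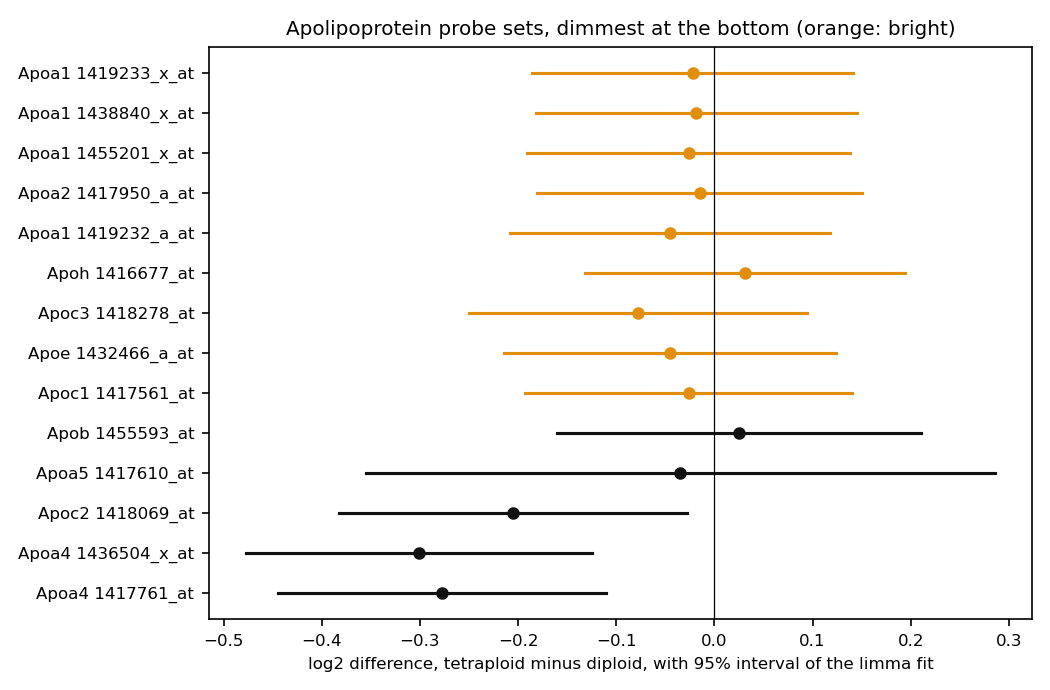
Log2 difference (tetraploid minus diploid) of each apolipoprotein probe set as a point, with the 95% interval of the limma fit as a line, ordered by brightness with the dimmest at the bottom; orange marks bright probe sets. Intervals of the 3 dimmest probe sets, those of Apoa4 and Apoc2, end below 0, and all others cross it.

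Bright probe sets were those whose mean lay within 1 log2 unit of the highest value of the table, 15.58, that is at or above 14.58. The mark fell on 9 of the 14 member probe sets, from 6 genes: Apoa1 with all 4, Apoa2, Apoc1, Apoc3, Apoe and Apoh. Over all probe sets, 53 (0.234%) carried it. Apoc1 was the member just inside, with a mean of 14.63. The highest value of an array lay between 15.54 and 15.58. This brightness is a property of the probe set and gives no order of transcript amounts between genes.

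The brightest member, an Apoa1 probe set, held place 2 or 3 among all probe sets on every array. Its values were 15.41, 15.40 and 15.39 in diploid and 15.39, 15.39 and 15.35 in tetraploid cells. The ranges overlapped within a few hundredths of a log2 unit. Its difference was -0.022 ± 0.071 (SE). The dimmest Apoa1 probe set read 15.28, 15.25 and 15.25 in diploid and 15.20, 15.23 and 15.22 in tetraploid cells. Here every tetraploid array was below every diploid array, with a difference of -0.045 ± 0.071 (SE). The other Apoa1 probe sets held only places 4 and 5 on all arrays. One read 15.38, 15.32 and 15.32 in diploid and 15.31 on each tetraploid array, again without overlap, and differed by -0.026 ± 0.072. The last differed by -0.018 ± 0.071 and its fractions overlapped. When the arrays were made exactly equal in distribution, the difference of both probe sets at places 4 and 5 became 0. Thus 2 of the 4 Apoa1 probe sets separated the fractions, by differences smaller than their SE in the limma fit. That SE draws on the spread of the whole table. From their own spread the SE was 0.0145 for the dimmest and 0.0188 for the other. With a variance trend, the unadjusted limma p of the dimmest was 0.237.

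Apoa2, the partner of APOA1 in HDL, read 15.29, 15.22 and 15.24 in diploid and 15.24, 15.23 and 15.23 in tetraploid cells. The tetraploid values lay inside the diploid range, with a difference of -0.015 ± 0.072 (SE), which became 0.011 when the arrays were made equal again. Apoc3, an inhibitor of lipoprotein lipase, read 14.95, 14.84 and 14.85 in diploid and 14.81, 14.78 and 14.82 in tetraploid cells. All tetraploid values were below the diploid ones, with diploid replicate 1 well above the rest. The difference was -0.078 ± 0.075 (SE), the largest of the bright members, and -0.042 without diploid replicate 1.

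Apoe, the receptor ligand of remnant particles, read 14.72, 14.61 and 14.68 in diploid and 14.63, 14.62 and 14.63 in tetraploid cells. The tetraploid arrays agreed closely and lay within the diploid range, with a difference of -0.045 ± 0.074 (SE). Apoc1 read 14.67, 14.63 and 14.63 in diploid and 14.61, 14.58 and 14.65 in tetraploid cells. The fractions overlapped, with a difference of -0.026 ± 0.073 (SE). Apoh was the bright member with a higher mean in tetraploid cells, at 14.88, 14.90 and 14.89 against 14.87, 14.83 and 14.87. The groups did not overlap, but the nearest arrays were less than a hundredth of a log2 unit apart, and the difference was 0.031 ± 0.071 (SE).

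Bright probe sets differed less between arrays than dimmer ones. The pooled SD between replicate arrays had a median of 0.0339 over the 53 bright probe sets, against 0.106 over the 6325 probe sets with a mean log2 intensity from 8 to 12. The largest difference of any bright probe set, in either direction, was 0.116 (Fabp1, a fatty acid-binding protein), and 29.9% of the probe sets in that middle range differed by more. The bright members had pooled SDs from 0.0162 to 0.0459 and differences of at most 0.078. Groups did not overlap for 4 of the 9 bright members, and for 8 of all 53 bright probe sets (15.1%), members included. Of the 44 bright probe sets that are not members, 4 had separate groups. The median SD fell over the whole range of brightness, from 0.131 more than 8 log2 units below the highest value to 0.0248 within 0.5 of it. Compression near the top and lower noise at high signal were not told apart.

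**Figure D3:**
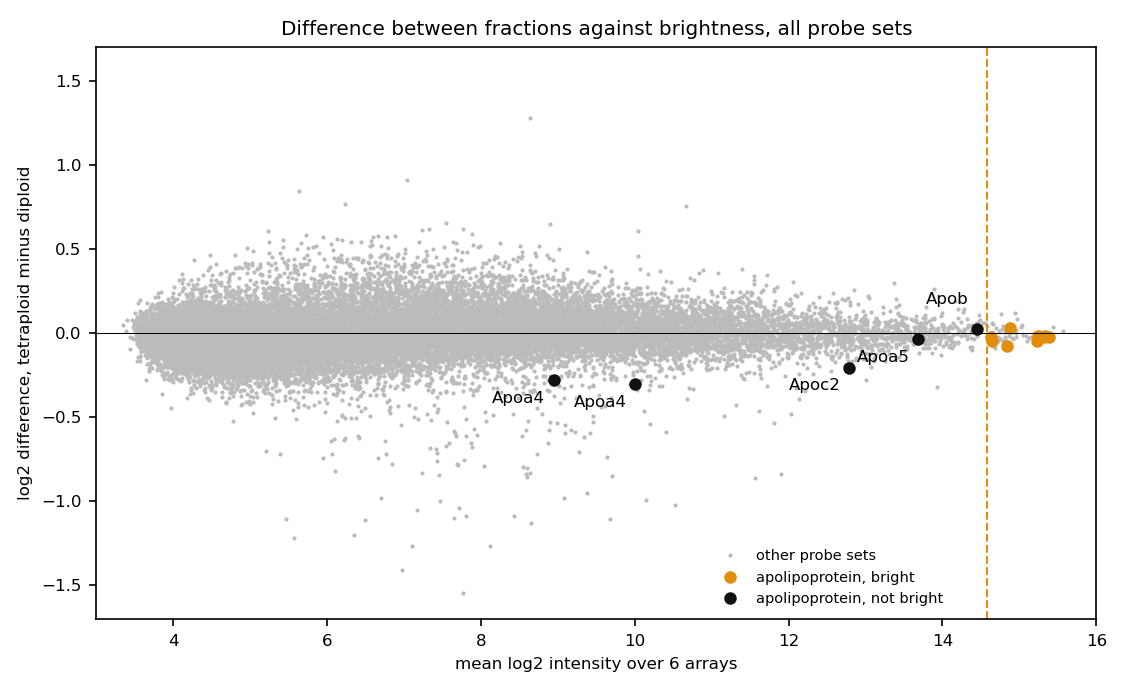
Log2 difference (tetraploid minus diploid) of 22626 probe sets against their mean log2 intensity over 6 arrays; grey points are other probe sets, orange points bright and black points other apolipoprotein probe sets, and the dashed line marks the mean of 14.58 above which a probe set counts as bright. The cloud narrows to the right, where the bright members lie within 0.078 of 0, while Apoa4 and Apoc2 lie between -0.30 and -0.21.

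Limma draws the variance of each probe set towards that of the whole table, which matters for the bright members. Their fitted SE, from 0.0711 to 0.0752, was 2.01 to 5.38 times the SE given by their own spread. With variance allowed to follow intensity, and over all other settings, the lowest unadjusted limma p of a bright member was 0.1, and 0 of 123 fits passed 0.05. All of these fits share variance between probe sets, so they do not test a member by its own spread alone. With the trend, the SE of the dimmest Apoa1 probe set was still 0.036, against 0.0145 from its own spread. Diploid replicate 1 had the highest of the 6 values for 8 of the 9 bright members, against 15 of all 53 bright probe sets, these 8 included. Its intensities at places 2 to 10 of the ranking had a mean of 15.29, against 15.26 to 15.28 on the other arrays. Probe sets of Apoa1 and Apoa2 themselves held several of these places. At places 11 to 60 the mean of diploid replicate 1, 14.76, was the lowest, against 14.77 to 14.79. Relative to the mean of each probe set over the arrays, the bright members averaged 0.0469 on diploid replicate 1. The other 44 bright probe sets averaged -0.0215 there, the lowest of the arrays. The part of diploid replicate 1 in the lower tetraploid means was not tested beyond the fits without it.

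**Figure D4:**
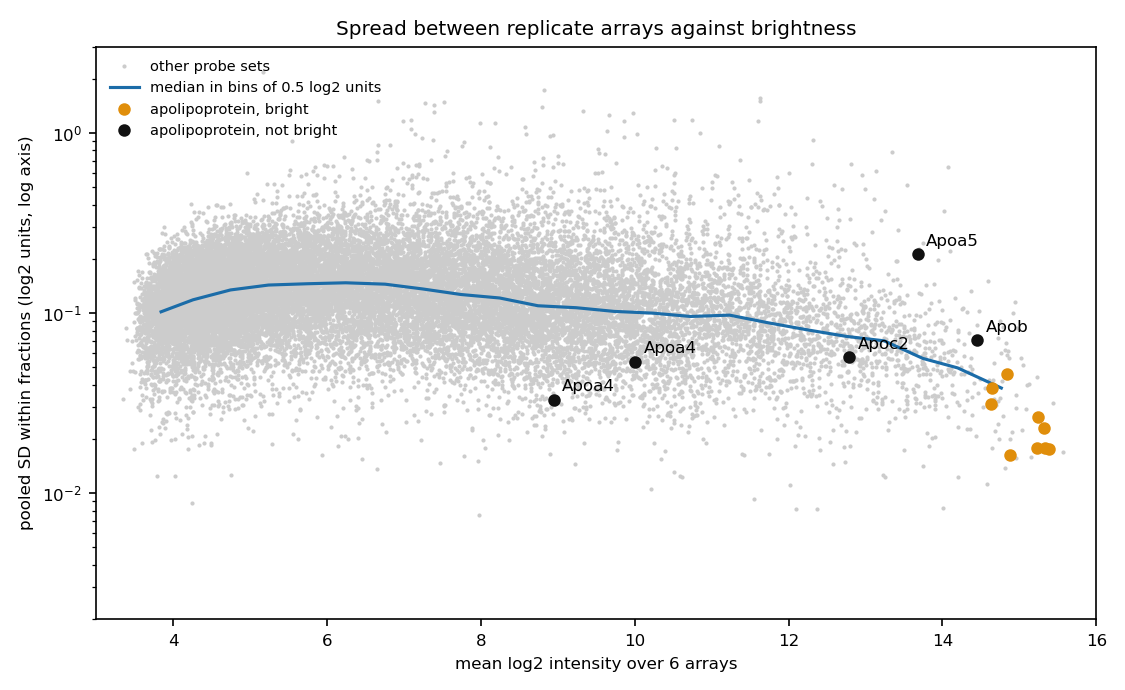
Pooled SD of log2 intensity within fractions, on a log axis, against mean log2 intensity over 6 arrays, for all probe sets (grey), bright members (orange) and other members (black); the blue line is the median in bins of 0.5 log2 units with at least 20 probe sets. The spread falls towards the right end, Apoa5 stands far above the line at 0.212, and both Apoa4 probe sets lie below it.

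Other genes of lipoprotein metabolism were read from lists of 114 genes, of which 95 had a probe set of their own, 173 probe sets in all. By limma 0 passed the adjusted threshold, and the smallest adjusted p was 0.364. At an unadjusted p under 0.05 there were 9 higher and 5 lower probe sets (8.09% of the list against 6.9% of the table), and 8 in total without diploid replicate 1. Read by the brightest probe set of each gene, 2 of the 95 passed, both lower. The median log2 difference over these probe sets was 0.025, against -0.0063 over the table.

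Among 12 other genes of apolipoproteins and proteins bound to lipoproteins, 2 were lower at an unadjusted p under 0.05 and 0 higher. Saa1, an acute-phase protein of HDL, differed by -0.36 ± 0.13 and by -0.29 on its other probe set. Apod, an apolipoprotein of the lipocalin family, differed by -0.32 ± 0.13 (SE) and lies among the dimmest 25% of probe sets, with a mean of 4.69 over the arrays. Saa2 differed by -0.18 ± 0.12. Apom, the HDL protein that carries sphingosine phosphate, differed by 0.003 ± 0.073 and by -0.077 on its other probe set, and Apof and Apon by 0.047 ± 0.072 and 0.12 ± 0.08 (SE, n = 3 per fraction).

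Genes of particle assembly, read by the brightest probe set of each gene, gave 0 of 19 at an unadjusted limma p under 0.05. Mttp, which loads lipid onto APOB, differed by 0.15 ± 0.11 and by 0.0085 on its other probe set, and Apobec1, the editor of Apob mRNA, by 0.15 ± 0.22. The members with the smallest p on any probe set were Pdia4 at -0.012 ± 0.10, Ces1d at 0.065 ± 0.079 and Surf4 at 0.009 ± 0.13 (SE, n = 3 per fraction). At that threshold 1 dimmer probe set was higher, of Ces1d, and 1 lower, of Pdia4. Other, dimmer probe sets gave -0.26 for Pdia4, 0.15 and 0.22 for Ces1d, and values from -0.049 to 0.15 for Surf4. Surf4 is a cargo receptor that helps lipoproteins leave the endoplasmic reticulum, and Ces1d a lipid hydrolase.

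Of 18 receptors and uptake genes, 0 passed an unadjusted limma p of 0.05 on any of their 38 probe sets. The HDL receptor Scarb1 differed by 0.026 ± 0.078, Lrp6 by 0.034 ± 0.073, Lrp2 by 0.11 ± 0.10 and Snx17 by 0.17 ± 0.11 (SE, n = 3 per fraction). Other probe sets gave 0.23 for Lrp6 and, with the opposite sign, -0.21 for Lrp2, whose brightest probe set is among the dimmest 25% of the table. Of 12 lipases and regulators, 0 passed by the brightest probe set, and 3 dimmer probe sets were higher at that threshold. Lipa, the lysosomal acid lipase, differed by 0.069 ± 0.11 on the brightest and by 0.19 and 0.31 on its other probe sets. Sel1l, needed for lipoprotein lipase to fold, differed by -0.022 ± 0.097 on the brightest and by 0.041 to 0.31 on the others, and Lipg by -0.28 ± 0.38, with -0.18 and -0.14 on its others.

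Of 12 genes of HDL formation, 0 passed by the brightest probe set, and of the dimmer probe sets 2 were higher, of Abca1 and Bmp1, and 1 lower, of Pcsk5. The cholesterol exporter Abca1 differed by 0.021 ± 0.10 and by 0.20 and 0.50 on dimmer probe sets, and Lcat, which esterifies cholesterol on HDL and is activated by APOA1, by -0.023 ± 0.079. Bmp1, the protease that trims the precursor of APOA1, differed by 0.11 ± 0.08, with values from -0.11 to 0.42 on its other probe sets, and Pcsk5 by 0.025 ± 0.089, with values from -0.30 to 0.10 on the others. Of 24 regulators of apolipoprotein transcription, 0 passed by the brightest probe set, and 3 dimmer probe sets, of Hnf4a and Nr2f2, were higher. Hnf4a, a nuclear receptor that drives many apolipoprotein genes, differed by -0.018 ± 0.11 on the brightest of 4 probe sets and by 0.16 to 0.45 on the dimmer ones. Nr2f2 differed by 0.19 ± 0.13 and by 0.33 and 0.38 on its other probe sets. Nr5a2 differed by 0.16 ± 0.07 (SE, n = 3 per fraction), with values from -0.14 to 0.086 on the others.

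The 6 arrays resembled each other closely, with Pearson correlations across probe sets from 0.992 to 0.997. Hepatocyte markers were strongly present, with 8 of 13 measured genes in the bright class, and the mean level of the list lay between 14.45 and 14.57 on diploid and between 14.40 and 14.55 on tetraploid arrays. Macrophages also make Apoe, and of 13 Kupffer cell and macrophage markers 9 had a lower mean in tetraploid cells with 0 at an unadjusted limma p under 0.05. Their summed intensity was 593 to 656 on diploid and 545 to 627 on tetraploid arrays, and 3 of the 13 were among the dimmest probe sets. Of 12 liver endothelial markers 3 were higher and 0 lower at that threshold, where 3.35% of all probe sets were higher and 3.55% lower. The sum of these markers was 1175 to 1305 in diploid and 1263 to 1522 in tetraploid cells. Of 12 stellate cell markers 1 was lower, of 8 cholangiocyte markers 2 and of 8 blood markers 1, with 0 higher in each. Their sums were 933 to 1052, 254.5 to 284.5 and 343 to 354 on diploid arrays and 1010 to 1043, 244.9 to 260.4 and 334 to 344 on tetraploid arrays, and 3, 3 and 4 of these markers were among the dimmest probe sets. The part of these cells in the differences of Apoa4 and Apoc2 was not tested.

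Genes that mark the position of hepatocytes in the liver lobule were read from short lists chosen with earlier results of these data known, and 0 passed the adjusted limma threshold. Of 4 measured genes of hepatocytes near the portal vein, Pigr, Hal and Cyp2f2 were lower in tetraploid cells at an unadjusted limma p under 0.05, by log2 differences of -0.46, -0.39 and -0.32, where 3.55% of all probe sets were lower. Pck1 differed by 0.026 ± 0.30 (SE). The sum of this list was 34240 to 42870 on diploid and 28780 to 35360 on tetraploid arrays. Its mean log2 level was 12.82 to 13.09 on diploid and 12.56 to 12.73 on tetraploid arrays, without overlap. Of 8 genes of hepatocytes near the central vein, Oat, Gulo and Lgr5 were higher, by 0.26, 0.29 and 0.29, and 0 lower at that threshold, where 3.35% of all probe sets were higher. Glul and Rhbg had lower means, by differences of -0.11 ± 0.11 and -0.061 ± 0.11, and Axin2, Cyp2e1 and Cyp1a2 differed by 0.23 ± 0.16, 0.11 ± 0.08 and 0.066 ± 0.095 (SE). The sum of the list was 43260 to 43600 on diploid and 46060 to 48900 on tetraploid arrays. A sum of linear intensities weighs the brightest gene most, here Cyp2e1, which is in the bright class. The mean log2 level of this second list, a measure that weighs the genes alike, was 9.975 to 10.15 on diploid and 10.15 to 10.24 on tetraploid arrays. The part of zonation in the differences of Apoa4 and Apoc2 was not tested.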

How the data were processed

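Total RNA of the sorted cells was made into biotin-labelled cRNA and hybridised to Affymetrix arrays, per the labels' protocols. The deposited values are linear intensities, made with RMA per the submitters' processing notes. For the RMA version and further steps, none of the sources used here gives details. RMA removes a difference in total RNA between fractions, so each difference is relative to the other transcripts of an array. Precision is limited by the number of arrays.

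Of 22690 rows, 64 controls were left out. The annotation gave 1 symbol to 20380 probe sets, several to 691 and none to 1555, and only the first kind was assigned to a gene. Log2 intensities of 22626 probe sets were fitted with limma 3.58.1 in R 4.3.3 (lmFit, eBayes, two-sided), with ploidy as the only term, and p-values were adjusted by Benjamini-Hochberg over the table. The procedure was tested on simulated data with added changes larger than those of Apoa4 and Apoc2, so that test does not cover differences as small as theirs. Alternatives were a filter on dim probe sets, other variance models, normalizations, array weights, a replicate block and leaving out each array. Another took 1 probe set per gene and left out the dimmest 25% of genes. A variance trend without robust fitting was added after seeing the data.

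Named genes were all members, the 3 of each pathway list with the smallest p over their probe sets, and Mttp, Apobec1, Scarb1, Lcat, Abca1, Hnf4a and Apom; other genes of the rule are not reported here. Apof, Apon and Apoc4 and the zonation genes were chosen after their values were seen. Members and lists were chosen with earlier results of these data known.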

Additional observations from a re-analysis of the deposited data

How the results depend on the processing

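No member passed the adjusted threshold under any alternative run, where the lowest adjusted limma p was 0.371. The lower values of Apoa4 and Apoc2 kept their direction in all fits, and over the 14 member probe sets 11 had no change of sign. Of the others, Apoa5 ranged from -0.15 to 0.087, Apoa2 from -0.031 to 0.0048 and Apob from -0.016 to 0.059 when arrays were left out in turn. Apoa2 turned to 0.011 and the difference of a pair of Apoa1 probe sets to 0 after quantile normalization. The count of 7 member probe sets with separate fractions became 4 after quantile normalization and 4 with 1 probe set per gene, which tests 10 members, and ran from 7 to 9 with arrays left out. The median difference of -0.030 was -0.21 over the 5 member probe sets that were not bright, which is the value of Apoc2 itself. Apoa4 counts there with 2 probe sets, and the remaining members, Apoa5 and Apob, differed by -0.035 and 0.025. The count of 9 bright members was 5 within 0.5 of the highest value and 11 within 2 of it. Counted among the 100 brightest probe sets on all 6 arrays, it was 10. The pathway count of 14 was 2 with 1 probe set per gene and the dimmest 25% of genes left out. Because of that filter, these need not be the 2 genes that passed among all 95. With arrays left out, the pathway count ran from 8 to 16. Over all probe sets, the count past the adjusted threshold was 0 to 1 with arrays left out.

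With the replicate number as a block, 10 probe sets passed in the whole table and 0 members, and the unadjusted p of Apoc2 became 0.0563. The numbers were not taken as pairs, since deviations from the fraction means correlated at 0.444, -0.146 and -0.158 for replicates 1, 2 and 3, and of these numbers only the first matched best with itself. Across numbers, diploid 2 and tetraploid 3 correlated at 0.244 and diploid 3 and tetraploid 2 at 0.559. No label pairs these arrays, and no fit was made with them as pairs.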

Other observations

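The scatter of Apoa5 was followed further, after its values had been seen. Among the 183 probe sets that lie 1 to 2 log2 units below the highest value of the table, 6 had a pooled SD within fractions at least as large as the 0.212 of Apoa5, itself included, where the median was 0.0521. Apart from a probe set annotated to several genes, the others belonged to Mt1, which encodes a metal-binding metallothionein, Errfi1, a feedback inhibitor of EGF receptor signalling, and Hmgcs1, an enzyme of cholesterol synthesis with 2 probe sets. Hmgcs1 was lowest of its fraction on the same arrays as Apoa5, at 13.89 on diploid replicate 3 and 13.86 on tetraploid replicate 2 on its brighter probe set, against 14.09 to 14.40 on the other 4 arrays. Mt1 was highest on these arrays, at 14.82 and 14.80, against 13.61 to 13.78 on the others. Over all probe sets, the deviations of diploid replicate 3 and tetraploid replicate 2 from their fraction means correlated at 0.559, a value across probe sets, which are not independent. The cause was not tested.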
